A study of Mus musculus with 4 samples.

Results

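Molecular chaperones and the folding enzymes of the endoplasmic reticulum (ER) were followed across 4 clonal lines of c17.2, neural stem cells that were derived from newborn mouse cerebellum and immortalised. The set holds 35 named genes: 14 of the ER, 10 of the cytosol, 4 of mitochondria and 7 that encode subunits of the cytosolic CCT ring. Every probe set annotated with 1 of these symbols was taken, which gave 52 probe sets for 33 genes, out of 8236 genes with a probe set of 1 symbol. Hsp90ab1 and Hsf1 had no such probe set. At least 1 probe set passed the filter on low signals for 30 of the 33 genes, among 4957 genes tested in all.

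Clone 42 and clone 48 are stable transfectants of Nurr1 (Nr4a2), an orphan nuclear receptor, and puroB and puroD are stable transfectants of the empty puromycin vector. All 4 lines were grown in proliferating conditions, and 1 array was made per line, so that each group has 2 clones. Because their proliferation rates were similar, clone 42 is matched with puroB and clone 48 with puroD, as the description of each sample has it. The series' design text names clone 42 beside puroD too, with the short form c48 in brackets. Each line is a single clone, so a difference between lines cannot be told apart from a difference between clones of any kind, and the 2 clones per group limit the precision.

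The Nr4a2 probe set 92248_at gave 319.8 (clone 42) and 206 (clone 48), against 485 (puroB) and 254 (puroD). The other Nr4a2 probe set, 92249_g_at, gave 188 (clone 42) and 113 (clone 48), against 372 (puroB) and 213 (puroD). On both probe sets the Nurr1 transfectant was lower, not higher, than its matched control in each pair. Whether the probes lie within the transfected sequence is not known, so this does not check the transgene, and these lines are called Nurr1-labelled. Median signals lay between 125 and 160.0 over the 4 arrays, and the highest of 15 control probe sets, for transcripts not added to the samples, lay between 39.1 and 62.6. The progenitor filament gene Nes had a signal of 3027 or more on every array, whereas Sox2 had no probe set of its own and the Vim signal was between 29.8 and 84.5. Among markers of other cell types, Syp (neuron), Aqp4 (astrocyte), Mog (oligodendrocyte), Aif1 and Itgam (microglia) and Cdh5 (endothelium) were under the highest control of their array on all 4 arrays. Others of the same types were above it on all 4 arrays, namely Tubb3 (2701 to 5683), S100b (509 to 1599), Mbp (75.4 to 176), Cx3cr1 (138 to 259), Csf1r (155 to 233) and Pecam1 (75.1 to 158).

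Chaperones hold newly made or damaged proteins and let them fold, and each compartment has its own. In the ER the Hsp70 protein BiP (Hspa5) works with J-domain co-chaperones, lectin chaperones and protein disulfide isomerases. When unfolded proteins build up there, the sensors of the unfolded protein response activate transcription factors such as Xbp1 and Atf6, which bind ER stress elements in the promoters of folding genes. In the cytosol and nucleus, heat shock factors bind heat shock elements, arrays of GAA and TTC triplets. The CCT ring, also called TRiC, folds actin and tubulin, and the Hsp60 and Hsp10 proteins form the corresponding chamber in mitochondria.

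These 2 kinds of element were looked for in the RefSeq promoter table (GRCm38.p6), in the 250 bases before each annotated start. Of the 35 genes, 28 had a window. The ER stress element is CCAAT and CCACG with 9 bases of any kind between them, and both strands were searched. It was found in 6 of 13 ER genes (Calr, Canx, Dnajc3, Hsp90b1, Hspa5 and Pdia6) and in 0 of 15 others. The share was 0.13% of all 27025 genes with a window, and 0.113% of all 32851 windows. Because the element is known from promoters of ER folding genes, these counts are a description and not a test. The shorter form, ATTGG and CCACG with 1 base between them, was found in Herpud1, and in 0.0304% of all windows. The heat shock element, the triplets GAA, TTC and GAA each 2 bases apart, was found on either strand in Hspd1 and Hspe1, and in 0.466% of windows. Both forms of the ER stress element, unlike the heat shock element, hold the letters CCACG. These letters alone occur in 28.3% of windows, in 31% of all genes and in 20 of the 28 genes. A match is only a run of letters, and no match says only that these letters are not in this window.

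The stretches before the start are shown for Hspa5 and Pdia6, with the ER stress element in capitals, and for Pdia4 and Dnajb9, the ER genes of the largest mean differences, in which 0 matches to the 3 elements were found. RefSeq also places Mir5627 in the Dnajb9 window. For Hspe1, 30 bases around 2 overlapping heat shock elements (in capitals) are shown. They lie between the annotated starts of Hspe1 and Hspd1, which are close to each other on opposite strands, so both windows hold the same element. RefSeq also places the Hspd1 gene over these 30 bases. The positions are chr2:34771840-34772089 (plus strand) for Hspa5, chr12:17266339-17266588 (plus) for Pdia6, chr6:47813513-47813762 (minus) for Pdia4, chr12:44210069-44210318 (minus) for Dnajb9 and chr1:55088053-55088082 (plus) for Hspe1.
Hspa5: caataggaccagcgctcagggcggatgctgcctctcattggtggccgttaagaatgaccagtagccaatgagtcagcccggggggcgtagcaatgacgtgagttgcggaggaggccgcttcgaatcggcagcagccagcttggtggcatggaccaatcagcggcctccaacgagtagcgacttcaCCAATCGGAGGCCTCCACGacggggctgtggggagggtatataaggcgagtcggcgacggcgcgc
Pdia6: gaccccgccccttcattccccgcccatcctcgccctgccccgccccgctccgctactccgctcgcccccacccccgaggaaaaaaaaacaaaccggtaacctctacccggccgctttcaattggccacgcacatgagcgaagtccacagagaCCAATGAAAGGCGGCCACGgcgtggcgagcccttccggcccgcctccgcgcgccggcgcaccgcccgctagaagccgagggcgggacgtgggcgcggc
Pdia4: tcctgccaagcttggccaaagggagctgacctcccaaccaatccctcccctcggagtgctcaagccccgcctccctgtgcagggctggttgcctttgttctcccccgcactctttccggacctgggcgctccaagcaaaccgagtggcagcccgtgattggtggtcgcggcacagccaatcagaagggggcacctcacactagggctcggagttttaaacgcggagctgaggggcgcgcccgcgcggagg
Dnajb9: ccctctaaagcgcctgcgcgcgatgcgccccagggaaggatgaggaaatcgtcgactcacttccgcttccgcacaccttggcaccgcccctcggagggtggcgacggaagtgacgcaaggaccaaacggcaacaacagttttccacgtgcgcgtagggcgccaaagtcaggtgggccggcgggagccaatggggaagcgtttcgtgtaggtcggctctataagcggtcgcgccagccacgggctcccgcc
Hspe1: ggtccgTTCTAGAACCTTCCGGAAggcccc

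**Figure D1:**
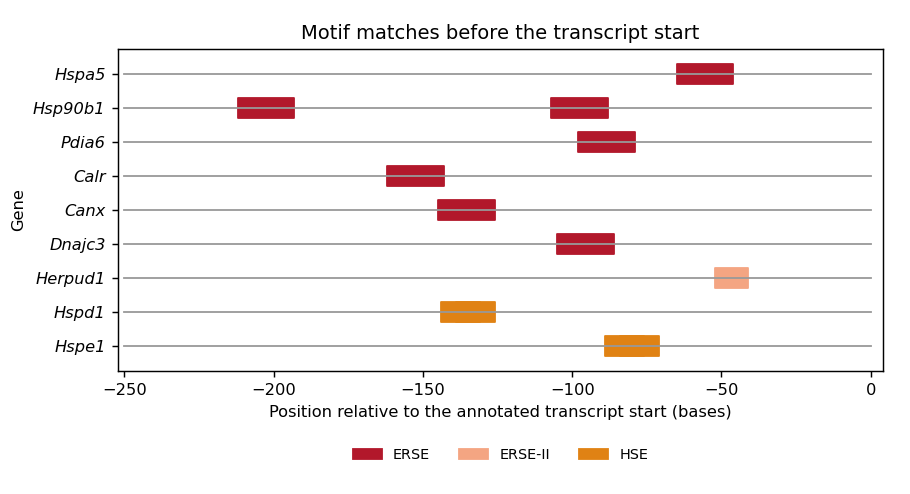
Positions of motif matches in the 250 bases before the annotated start of 9 genes, 1 line per gene, with the start at 0 on the x axis in bases. ER stress elements (ERSE) and the shorter form (ERSE-II) lie in 7 ER genes, with 2 ERSE matches in Hsp90b1, and heat shock elements (HSE) in Hspd1 and Hspe1 are the same stretch seen from either start.

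Each Nurr1-labelled clone was set against its matched control to ask which transcripts go with the transfected Nurr1. The ER gene Dnajb9 was higher and the ER gene Pdia4 lower in both pairs, the mitochondrial genes Dnajc15 and Hspe1 went opposite ways in the 2 pairs, and most CCT subunits were lower in both pairs by less than 1.6-fold. Values are signals in arbitrary units after each array had been scaled to the same trimmed mean, and differences are on the log2 scale, Nurr1-labelled minus control. In limma, with the pair as a block and Benjamini-Hochberg adjustment over all 6419 tested probe sets, 0 of 40 tested probe sets of these genes passed an adjusted p of 0.05, where 0.109% of all probe sets did. At an unadjusted p under 0.05 there were 3 of 40 (Pdia4, Dnajb9 and 1 of the 3 Pdia6 probe sets), close to the 7.38% of all probe sets.

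**Figure D2:**
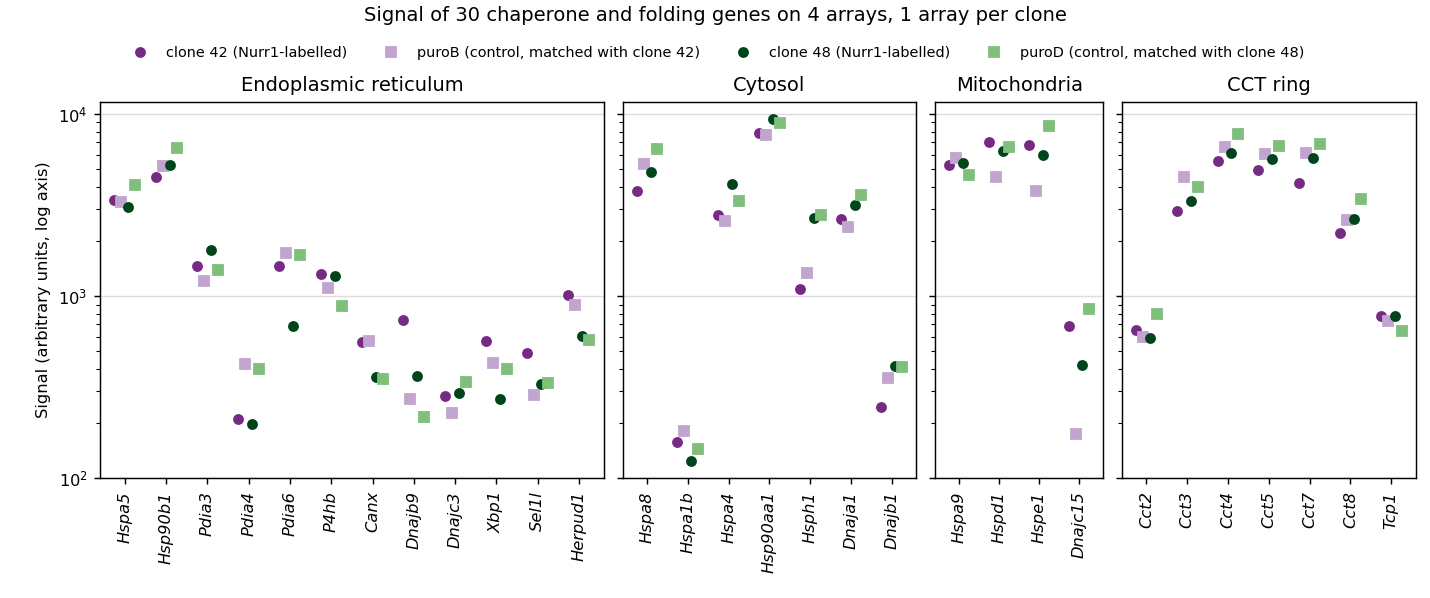
Signal (arbitrary units, log axis) of the 30 tested genes on each of 4 arrays, 1 point per array, grouped by compartment. Dnajb9 is higher and Pdia4 lower in both Nurr1-labelled clones (circles) than in both control clones (squares), as are 13.3% and 17.3% of all genes. Dnajc15 is lowest on puroB at 175.

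With 1 probe set per gene, the brightest tested one, the median difference over the 30 genes was 0.04 in the pair of clone 42 and -0.21 in the pair of clone 48. Over all tested genes the medians were -0.07 and 0.00. Higher in both pairs were 7 of 30 genes, against 22.4% of all genes, and lower in both pairs 11 of 30, against 28.3%. A difference of 0.5 or more in both pairs was found for 1 higher gene (background 2.22%) and 1 lower gene (3.37%). The set as a whole had 36.7% of its genes lower in both pairs, and no test of that share was made.

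**Figure D3:**
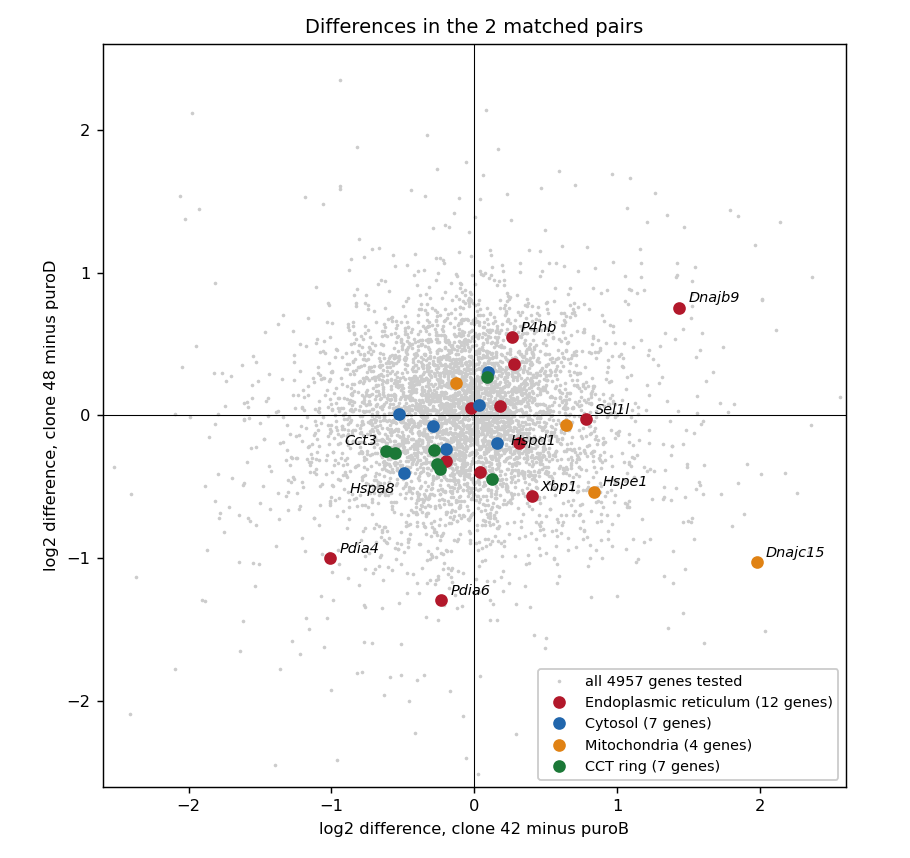
Log2 difference between clone 42 and puroB (x axis) and between clone 48 and puroD (y axis), 1 point per gene, coloured by compartment, over all 4957 tested genes in grey. Dnajb9 lies at 1.43 and 0.75 and Pdia4 at -1.01 and -1.0, Dnajc15 at 1.98 and -1.03, and 21 genes lie outside the plotted range of 2.6.

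Dnajb9 encodes ERdj4, a J-domain co-chaperone of BiP that takes part in the disposal of misfolded ER proteins. Its signal (96680_at) was 736 (clone 42) and 366 (clone 48), against 273 (puroB) and 217 (puroD). Both Nurr1-labelled arrays lay above both controls, as they did for 13.3% of all genes. The differences were 2.70-fold and 1.69-fold in the pairs. The mean log2 difference was 1.09 ± 0.30 (SE, n = 2 clones per group; limma, adjusted p = 0.206, unadjusted p = 0.00292), and the clones of the same group also differed, by 1.01 between clone 42 and clone 48. Without clone 42 the mean was 0.59 and without clone 48 it was 1.60. When only probe sets above the filter on all 4 arrays were tested, the same difference of 1.09 had an adjusted p of 0.0488 in limma, and over all alternatives the adjusted p lay between that and 1. A probe set that did not pass the filter (96679_at) had 200.4 (clone 42) and 57.7 (clone 48), against 92.3 (puroB) and 69.7 (puroD), so it was higher only in the pair of clone 42.

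Pdia4 encodes ERp72, a disulfide isomerase of the ER. Its signal was 212 (clone 42) and 198 (clone 48), against 426 (puroB) and 396 (puroD). The groups did not overlap, as for 17.3% of all genes with the Nurr1-labelled clones lower. The clones within a group were within 1.08-fold of each other. The Nurr1-labelled clone was 2.01-fold lower in the pair of clone 42 and 2.0-fold lower in that of clone 48, with a mean log2 difference of -1.0 ± 0.30 (SE, n = 2 clones per group; limma, adjusted p = 0.265, unadjusted p = 0.0051). Leaving out each clone in turn gave means between -1.06 and -0.95.

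Some markers of other cell types also differed between the groups that set Dnajb9 and Pdia4 apart, 1 gene carrying each such difference. The summed signal of 4 fibroblast markers was 5373 (clone 42) and 4274 (clone 48), against 1639 (puroB) and 2430.1 (puroD), with 2 of the 4 above the control level on every array. Col3a1 alone gave 5015 and 4006 of it, against 1287 and 1749, whereas Col1a1 was 267 and 207, against 239 and 559, and Lum was 30.4 and 36.4, against 77.7 and 48.8. That of 3 neuronal markers was 5736 and 4646 in the Nurr1-labelled clones, against 2920.2 in puroB and 2836 in puroD, where only Tubb3 was above the control level on every array, and Map2 ran the other way at 45.8 and 4.2, against 198 and 120.2. The 5 neural stem and progenitor markers on the array summed to 4013 and 4060.2 in the Nurr1-labelled clones, against 4801 and 4834 in the controls. Fabp7 was lower, at 564 and 157, against 1291 and 1537, and Nes overlapped, at 3171 and 3716, against 3323 and 3027. The summed signals of the astrocyte list (1662 and 677, against 862 and 669), the endothelial list (219 and 132, against 246 and 145) and the microglial list (440.3 and 399.9, against 439 and 389) overlapped between the groups, and that of the oligodendrocyte list was lower (79.6 and 102, against 183 and 155). The 3' to 5' ratio of actin, which grows as RNA degrades, was 1.68 in clone 42 and 1.51 in puroB. In the other pair it was 2.41 in clone 48 and 2.0 in puroD. The Gapdh ratio was 0.935 (clone 42) and 0.859 (puroB), and 1.24 (clone 48) and 0.973 (puroD). The part of cell identity and RNA integrity in the chaperone differences was not tested, and in bulk RNA fewer cells of a type and less RNA per cell cannot be told apart.

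The other disulfide isomerases did not go one way. Pdia6, which encodes P5, had signals of 1462 (clone 42) and 688 (clone 48), against 1717 (puroB) and 1688 (puroD) (94208_at). Only clone 48 stood apart, 2.45-fold under puroD, whereas clone 42 was 1.17-fold under puroB. The mean was -0.76 ± 0.34 (SE, n = 2 clones per group; limma, adjusted p = 0.604), and -0.22 without clone 48. A second Pdia6 probe set (94209_g_at) was 2.04-fold lower in that pair and 1.08-fold higher in the pair of clone 42, and the third (94207_at) was within 1.28-fold in both, so the probe sets disagree on its size.

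Pdia3 and P4hb, the disulfide isomerases ERp57 and PDI, were higher in both Nurr1-labelled clones than in both controls, as were 13.3% of all genes. Pdia3 had 1461 (clone 42) and 1795 (clone 48), against 1206 (puroB) and 1397 (puroD). P4hb had 1329.8 (clone 42) and 1284 (clone 48), against 1108 (puroB) and 878 (puroD) (161926_r_at), whereas 93108_at, which did not pass the filter, was 1.75-fold lower in clone 48 than in puroD. Their mean differences of 0.32 ± 0.31 and 0.41 ± 0.30 (SE, n = 2 clones per group) did not pass in limma (adjusted p = 0.933 and 0.896).

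Hspa5 (BiP) and Hsp90b1 (Grp94), the main chaperones of the ER and standard readouts of the unfolded protein response, differed little. Hspa5 had 3369 (clone 42) and 3085 (clone 48), against 3271 (puroB) and 4056 (puroD). Hsp90b1 had 4531 (clone 42) and 5245 (clone 48), against 5194 (puroB) and 6541 (puroD). For both genes puroD was the highest array, and no pair differed by more than 1.31-fold. Both genes carry the ER stress element before their start, as do Pdia6, Canx and Dnajc3 among the tested genes, whose mean differences lay between -0.76 (Pdia6) and 0.06 (Dnajc3).

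Xbp1, the transcription factor whose spliced form drives ER folding genes, had 566 (clone 42) and 271 (clone 48), against 429 (puroB) and 400.0 (puroD). It was 1.32-fold higher in the pair of clone 42 and 1.48-fold lower in the other. The array does not tell spliced from unspliced Xbp1. Sel1l, a scaffold of ER-associated degradation, had 490.0 (clone 42) and 328 (clone 48), against 285 (puroB) and 334 (puroD). On this probe set (92870_at) clone 42 alone stood above the other 3. Its other probe set (92871_at), which did not pass the filter, had 129.8 (clone 42) and 136 (clone 48), against 118 (puroB) and 122 (puroD). Herpud1, another degradation factor of the ER membrane and the gene with the shorter stress element, had 1014 (clone 42) and 606 (clone 48), against 897 (puroB) and 578 (puroD).

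Canx (calnexin), a lectin chaperone of glycoproteins, shared that order by pair. Its signals of 560.2 (clone 42) and 362 (clone 48), against 569 (puroB) and 349 (puroD), were within 1.04-fold inside each pair. A second Canx probe set (160180_at) was lower in the Nurr1-labelled clone of both pairs, by 1.17-fold and 1.2-fold. For 3 of 12 tested ER genes (Canx, Herpud1, Xbp1) both arrays of the clone 48 pair lay below both of the clone 42 pair. This held for 22.3% of all genes. Over all compartments there were 4 of 30. Clone 42 was the highest array for 5 of 12 ER genes and for 7 of 30 in all, against 26.3% of all genes.

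Dnajc3, which encodes the BiP co-chaperone p58IPK, had 284 (clone 42) and 293 (clone 48), against 229 (puroB) and 336 (puroD), and its differences of 0.31 and -0.19 were opposite. Calreticulin (Calr) and the large ER Hsp70 Hyou1 were at 27.2 or less on every array, at or under the floor of 40.3 and the control level, so their probe sets give no measure of the transcripts here. Hspb1, the small heat shock protein, was between 34.6 and 50.3 and was not tested either. Both pairs were higher for 4 of the 12 tested ER genes (22.4% of all genes) and lower for 3 (28.3% of all genes), with medians of 0.22 and -0.11, against -0.07 and 0.00 over all genes.

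Among cytosolic chaperones most values differed by pair. For 5 of 7 tested genes (Dnaja1, Dnajb1, Hsp90aa1, Hspa4 and Hsph1) both arrays of the clone 48 pair lay above both arrays of the clone 42 pair, against 17.6% of all genes. Over all compartments there were 8 of 30. The largest such difference was that of Hsph1, an Hsp110 that reloads Hsp70 with nucleotide, with 1096 (clone 42) and 2673 (clone 48), against 1339 (puroB) and 2809.7 (puroD). Within the pairs Hsph1 differed by 1.22-fold and 1.05-fold. The actin 3' to 5' ratio was also higher in the clone 48 pair, at 2.41 and 2.0. In the clone 42 pair it was 1.68 and 1.51. The Gapdh ratio was 1.24 and 0.973 in the clone 48 pair, against 0.935 and 0.859. The part of these ratios in the chaperone values was not tested.

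Dnajb1, a co-chaperone of Hsp70 that heat shock induces, had 246 (clone 42) and 412 (clone 48), against 354 (puroB) and 410.3 (puroD). Dnaja1, a related co-chaperone, had 2669 (clone 42) and 3151 (clone 48), against 2385 (puroB) and 3606 (puroD). Hspa4, another Hsp110, had 2780.1 (clone 42) and 4122 (clone 48), against 2599 (puroB) and 3345 (puroD). Of its other tested probe sets, 92571_at and 100353_g_at were also highest in clone 48, whereas 161745_f_at was highest in puroD at 399. The inducible cytosolic Hsp90, Hsp90aa1, stayed within 1.05-fold in both pairs, with 7899.7 (clone 42) and 9429 (clone 48), against 7717 (puroB) and 8981 (puroD).

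Hspa8, the constitutive cytosolic Hsp70, was the cytosolic gene lower in both Nurr1-labelled clones than in both controls, as were 17.3% of all genes. Its signal was 3788 (clone 42) and 4834 (clone 48), against 5321 (puroB) and 6399 (puroD), or 1.40-fold and 1.32-fold lower in the pairs. The mean of -0.45 ± 0.31 (SE, n = 2 clones per group) did not pass in limma (adjusted p = 0.877). The inducible Hsp70 Hspa1b, whose copy Hspa1a is nearly identical in sequence so that the probes may read both, had 159 (clone 42) and 124 (clone 48), against 182 (puroB) and 145 (puroD). The medians of the 7 genes were -0.20 in the pair of clone 42 and -0.07 in that of clone 48.

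In mitochondria, 3 of 4 genes had their lowest signal on puroB. For all 30 genes that count was 9, against 20.6% of all genes. Opposite ways by 0.5 or more in each pair went 2 of 30 (Dnajc15 and Hspe1), against 4.36% of all genes, and lowest on puroB and highest on puroD were 4 of 30 (these with Dnaja1 and Dnajc3), against 6.86%. Dnajc15, a J-domain protein of the inner membrane, had 689.7 (clone 42) and 418 (clone 48), against 175 (puroB) and 852 (puroD). The control clones thus differed by 4.86-fold, more than either pair, where clone 42 was 3.94-fold above puroB and clone 48 was 2.04-fold below puroD. The average log2 difference of 0.48 ± 0.49 (SE, n = 2 clones per group; limma, adjusted p = 0.951) was -0.67 without puroB and 1.62 without puroD. Its probe set, 97204_s_at, carries the suffix that Affymetrix gives to probes shared by several transcripts.

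Hspd1 and Hspe1, which encode Hsp60 and its lid Hsp10 from the shared promoter shown above, were both lowest on puroB. Hspe1 had 6767 (clone 42) and 5948 (clone 48), against 3786 (puroB) and 8610.2 (puroD). Hspd1 had 6989 (clone 42) and 6302 (clone 48), against 4488 (puroB) and 6614 (puroD). The control clones differed by 2.27-fold for Hspe1 and 1.47-fold for Hspd1, and the differences in the pairs were 0.84 and -0.53 for Hspe1 and 0.64 and -0.07 for Hspd1. A second Hspd1 probe set (161140_r_at) was highest on puroB at 206. Hspa9, the mitochondrial Hsp70, had 5286 (clone 42) and 5405 (clone 48), against 5773 (puroB) and 4613 (puroD), and did not share the pattern.

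Most CCT subunits were lower in the Nurr1-labelled clone of both pairs. They were 5 of 7 (Cct3, Cct4, Cct5, Cct7 and Cct8), against 28.3% of all genes. The medians were -0.26 in the pair of clone 42 and -0.27 in that of clone 48. A further subunit, Cct6a, is not among the 7 and was read with the related genes below. It went opposite ways, at 0.14 and -0.12. For 4 of 7 (Cct3, Cct4, Cct5 and Cct7) both Nurr1-labelled arrays lay below both control arrays, against 17.3% of all genes, as they did for 7 of 30 genes in all. The converse held for 4 of 30 genes (Dnajb9, P4hb, Pdia3 and Tcp1), against 13.3%. Clone 42 was the lowest array for 5 of 7 subunits and for 9 of 30 genes (background 30.3%), and puroD the highest for 5 of 7 and for 13 of 30 (background 21.3%).

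Cct7 had 4169.8 (clone 42) and 5727 (clone 48), against 6132 (puroB) and 6883 (puroD). Cct3 (98446_s_at) had 2938 (clone 42) and 3345 (clone 48), against 4508 (puroB) and 3971 (puroD). On these probe sets their means of -0.41 ± 0.31 and -0.43 ± 0.31 (SE, n = 2 clones per group) were the largest of the ring. Neither passed in limma (adjusted p = 0.896 and 0.895). The Cct3 probe set carries the same suffix for shared probes as that of Dnajc15. Its other tested probe sets had means of 0.00 (98153_at) and -0.08 (161238_f_at), and on both the groups overlapped. Cct4 had 5513 (clone 42) and 6154 (clone 48), against 6609 (puroB) and 7790.1 (puroD). Cct5 (93295_at) and Cct8 differed by -0.26 and -0.31, each by no more than 1.30-fold in a pair. Cct2 went opposite ways, at 0.12 and -0.44, and Tcp1, the subunit after which the ring was first named, was higher in both pairs, at 0.09 and 0.27.

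Other probe sets of the ring were less one-sided. For Cct3, 98153_at was lower in the pair of clone 42 (-0.36) and higher in the other (0.35), and 161238_f_at did the same (-0.41 and 0.25). For Cct5, 161514_at was higher in clone 48 by 0.84. Scaling also bears on differences of this size. When the arrays were scaled to the same median, the median of all tested genes moved to 0.06 and 0.21 in the pairs, and that of the CCT genes to -0.14 and -0.05. The same 5 subunits were lower in both pairs under that scaling and under quantile normalization, where the CCT medians were -0.48 and -0.24, against -0.01 and 0.02 for all genes. With median scaling, both pairs were higher for 12 of the 30 genes and lower for 10, in place of 7 and 11.

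By size, 2-fold or more in either direction was reached by 3 of 30 genes in the pair of clone 42 (Dnajb9, Dnajc15 and Pdia4; background 8.31%) and by 3 in the pair of clone 48 (Dnajc15, Pdia4 and Pdia6; background 4.66%). Clones of the same label were set against each other in the same way. In puroB over puroD there were 3 of 30 (Dnajc15, Hspe1 and Hsph1; background 5.73%), and in clone 42 over clone 48 there were 4 (Dnajb9, Hsph1, Pdia6 and Xbp1; background 10.4%). As many or more of these genes thus reached that size between clones of the same label as within a matched pair.

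Further genes of protein folding were read from 2 lists, beside the shares over all genes given above (22.4% higher and 28.3% lower in both pairs, and 7.38% of probe sets at an unadjusted p under 0.05). Of 31 ER genes that were tested, both pairs were higher for 9 and lower for 6, 0 passed in limma over all probe sets, 1 had an unadjusted p under 0.05, and the medians were 0.05 and -0.04. That gene was Os9, a lectin of ER-associated degradation, with 250.1 (clone 42) and 187 (clone 48), against 94.4 (puroB) and 129 (puroD). Only the Nurr1-labelled arrays lay above the signal minimum of the filter, so Os9 was tested because of the group in which it was higher. Its unadjusted p is therefore not independent of the filter, and no conclusion is drawn from it. Of the stress response genes, Atf4, Atf6, Ddit3 and Trib3 were within 0.25 of 0 in both pairs, and Ppp1r15a was 0.03 and -0.47. Between the control clones, puroB minus puroD, Ddit3 differed by 1.5 and Trib3 by 1.17. Dnajb11, a BiP co-chaperone, and Sec61b, a channel subunit, were higher in clone 42 by 1.03 and 1.23 and differed by 0.11 and -0.10 in the other pair. Pdia5, another disulfide isomerase, was -1.02 and -0.15.

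Of 34 cytosolic and mitochondrial genes, both pairs were higher for 7 and lower for 14, 0 passed in limma, 2 had an unadjusted p under 0.05, and the medians were -0.14 and -0.04, with the same shares over all genes (22.4%, 28.3% and 7.38%) beside them. Both were small heat shock proteins. Cryab, alpha-B-crystallin, had 1711 (clone 42) and 1481 (clone 48), against 594 (puroB) and 823 (puroD), a mean difference of 1.19 ± 0.31 (SE, n = 2 clones per group; limma, adjusted p = 0.176, unadjusted p = 0.00195). Hspb8 had 3416 (clone 42) and 2179 (clone 48), against 1471 (puroB) and 1623 (puroD), a mean of 0.82 ± 0.33 (adjusted p = 0.536). In both genes, which were picked by their p, the groups did not overlap, as for 13.3% of all genes in that direction. Dnajb4, a co-chaperone of Hsp70, was -0.12 and -1.34, with only clone 48 apart from the rest at 60.9.

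**Figure D4:**
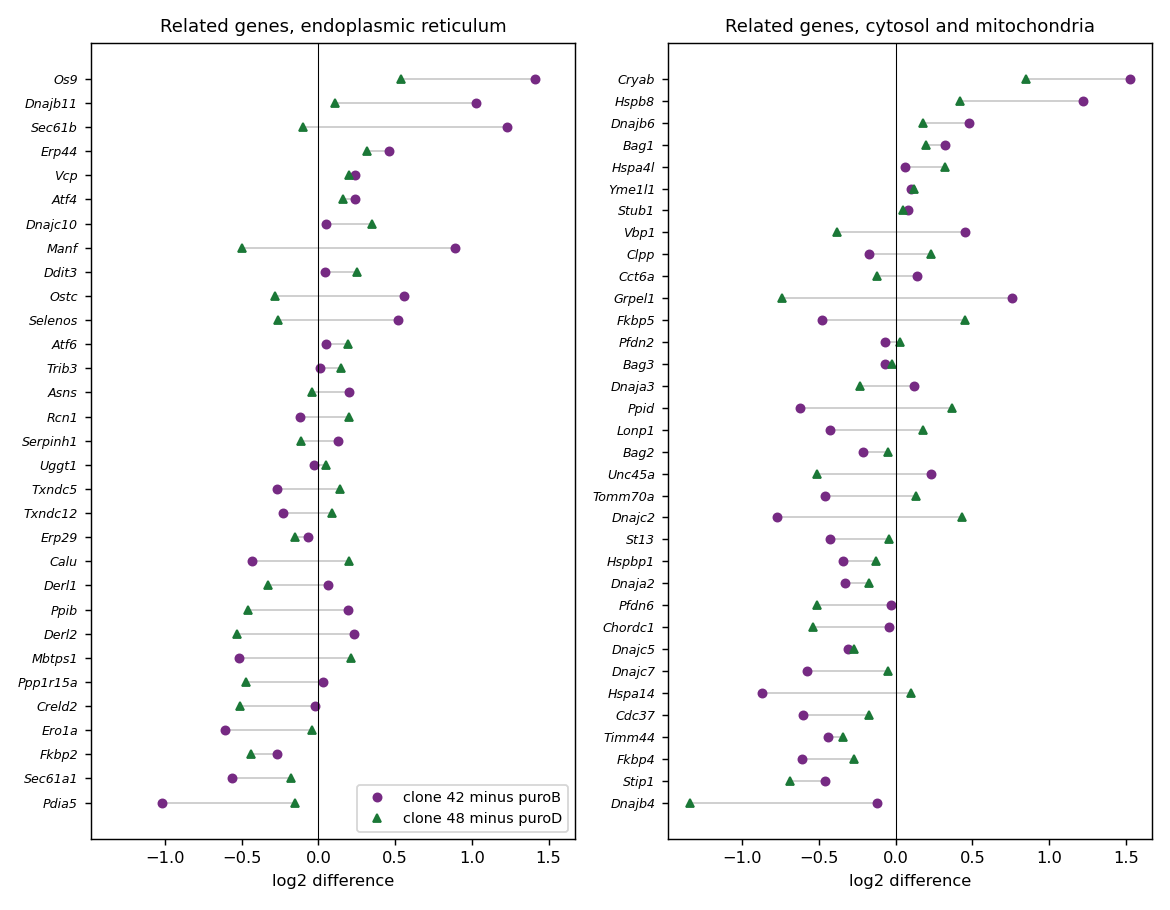
Log2 differences of related folding genes, 31 of the ER (left) and 34 of the cytosol and mitochondria (right), in the pair of clone 42 (circles) and that of clone 48 (triangles), joined by a line. Os9 and Cryab lie at the top of their panels, at 1.41 and 0.54 and at 1.53 and 0.85. For Os9 only the Nurr1-labelled arrays were above the signal minimum of the filter, so no conclusion is drawn from its place.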

How the data were processed

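The deposited table holds an intensity on a linear scale for each of 12469 probe sets on each array, made with MAS5 per the submitters' processing notes. The MAS5 version and scaling target were not given in the sources used here. As deposited, the trimmed means (2% off each end) lay between 500.4 and 500.5. A factor per array brought that mean to 500. Before log2, a floor of 40.3, the 30th percentile over all arrays, replaced lower signals. Probe sets with at least 2 of 4 arrays above 145, the median of all values, were tested, without 66 array controls, which left 6419.

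Symbols came from the platform annotation. All 52 probe sets had the same symbol by Entrez identifier in RefSeq (GRCm38.p6). limma 3.58.1 in R 4.3.3 was fitted over all tested probe sets with the matched pair as a block, an intensity trend and Benjamini-Hochberg adjustment. The sample descriptions give the pairing, and the design text differs from them for clone 48. When checked, array deviations from the group mean had r = 0.19 within pairs, across probe sets, which are not independent. There is 1 residual degree of freedom, to which the prior adds 13.1. The script was tested on simulated data, with planted changes larger than the mean differences reported here. That does not show how well differences of the reported size are found. Counts and medians over genes carry no test. The members and lists were chosen with earlier results of these data known. Named in full were genes 0.5 or more apart the same way in both pairs, genes past 2-fold in a pair or between control clones, the brightest gene and the 3 largest mean differences each way per compartment. Related genes were named past 1 log2 in a pair or at an unadjusted p under 0.05. Atf4, Atf6, Ddit3, Trib3 and Ppp1r15a, and the markers named singly, were chosen after their values were seen. Alternatives left out the block, the floor, the filter or each clone, tightened the filter, or used quantile normalization or median scaling. Fits without a clone had no pair block. Using every tested probe set of the members, and the counts of opposite pairs and of puroB lowest with puroD highest, were added after seeing the data.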

Additional observations from a re-analysis of the deposited data

Results flagged for a closer look

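For 2 mitochondrial genes the pairs went opposite ways by 0.5 log2 or more each. For Dnajc15 the difference in the pair of clone 42 exceeded that in the pair of clone 48 by 3.0 (1.98 and -1.03), and for Hspe1 by 1.37 (0.84 and -0.53). With 1 array per clone, these differences between the pairs were not tested. Both genes had their lowest signal on puroB, at 175 and 3786, and their highest on puroD, at 852 and 8610.2.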

How the results depend on the processing

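Over all probe sets 7 passed (4 higher, 3 lower). Without the replicate block, with quantile normalization and with no filter 0 passed in limma (287, 377 and 560 at an unadjusted p under 0.05). Median scaling gave 44 (31 higher, 13 lower), no floor 4 and the filter on all 4 arrays 49 (27 higher, 22 lower). Leaving out each clone gave between 0 (without puroB, where 203 had an unadjusted p under 0.05) and 51 (without clone 48), with 17 without clone 42 and 2 without puroD. Of the chaperone probe sets 0 passed under all of these except the filter on all 4 arrays, where 1 passed (Dnajb9, 1.09). The median over the 30 genes, -0.049 as a mean of both pairs, lay between -0.323 (without puroB) and -0.047 when clones were left out, and turned to 0.120 with median scaling. That of the clone 48 pair, -0.213, was 0.003 with median scaling. That of the clone 42 pair, 0.038, was -0.002 with quantile normalization and -0.049 with every tested probe set.

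Mean differences changed sign with quantile normalization for Xbp1 (0.02), Hspa9 (-0.06) and Hsp90aa1 (-0.0031), and with median scaling for Xbp1 (0.09), Dnaja1 (0.15) and Cct2 (0.0081). The fits that left out 1 clone had no pair block. The clone alone in its group was thus set against both clones of the other group, matched and unmatched. Within the pairs, Canx differed by -0.02 and 0.05, Herpud1 by 0.18 and 0.07 and Hsph1 by -0.29 and -0.07. Leaving out 1 clone changed the sign of 13 of 30 genes and kept that of 17. The ranges were -0.34 to 0.37 for Canx, -0.22 to 0.33 for Dnajc3, -0.61 to 0.45 for Xbp1, -0.25 to 0.49 for Herpud1, -0.08 to 0.48 for Hspa4, -0.11 to 0.21 for Hspa9 and -0.44 to 0.74 for Hspe1. For Hsp90aa1 they were -0.08 to 0.18, for Hsph1 -0.82 to 0.46, for Dnaja1 -0.31 to 0.28, for Dnajb1 -0.63 to 0.11, for Dnajc15 -0.67 to 1.62 and for Cct2 -0.37 to 0.05. Where 2 clones each changed the sign, the smaller value was -0.30 for Canx, -0.19 for Herpud1, -0.06 for Hsp90aa1, 0.35 for Hsph1 and 0.10 for Dnaja1. The cause was not tested. Signals under 62.6, the highest control, limit what dim probe sets can show.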

Other observations

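Of the 65 related genes tested, 6 were lowest on puroB and highest on puroD as Hspe1 was (Cct6a, Grpel1, Manf, Ostc, Ppib and Vbp1), against 6.86% of all genes. Of the 65, 1 (Grpel1) went opposite ways in the pairs by 0.5 log2 or more each, against 4.36% of all genes. Grpel1, the nucleotide exchange factor of the mitochondrial Hsp70, had 683 (clone 42) and 464 (clone 48), against 404 (puroB) and 775 (puroD).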
